A study of Mus musculus with 18 samples.

Results

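Interferon-stimulated genes were followed in the brain of *Atxn2*-CAG100-KIN mice through *Ifitm3*, *Usp18*, *Ifit2*, *Ifit3*, *Irf7*, *Isg15*, *Bst2*, *Oasl2* and *Rtp4*, 9 of the 35823 gene names in the transcript count table. The members were chosen by name, and the 38 transcript entries that carry these names, of 116873 in all, were summed per gene. RNA came from astrocyte, microglia and neuronal fractions of mouse brain, with 3 libraries for each fraction and genotype and 18 libraries in total. The WT group and the homozygous KIN group were both on a C57BL/6 background, 10 months old, of both sexes, born to heterozygous parents and without any treatment. The sex of each library is not given in the labels. In KIN mice a CAG100 repeat that encodes a glutamine expansion replaces the lone glutamine codon of the mouse *Atxn2* gene, so every cell of the body carries it. Cells were taken in sequence from a whole brain, microglia with beads against CD11b, astrocytes with beads against ACSA-2, and neurons as the cells left after removal of labelled non-neuronal and CD31-positive cells. The labels do not say which replicate numbers are the same mouse, so *p* values measure only the spread between these libraries.

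Type I interferons bind the receptor IFNAR1/IFNAR2 on a cell, and the kinases JAK1 and TYK2 then pass the signal to transcription factors that bind interferon-stimulated response elements near the start of their target genes. The products block viruses, sense nucleic acids or tune the signal itself, and in the brain microglia and astrocytes are known to express them in infection, ageing and neurodegeneration. Among the 9 genes, *Ifitm3* and *Bst2* encode membrane proteins that block the entry and the release of virus particles. *Isg15* encodes a ubiquitin-like protein, *Usp18* the protease that removes it from its targets and also restrains the receptor. *Irf7* encodes a transcription factor that amplifies the response, and *Ifit2* and *Ifit3* encode RNA-binding antiviral proteins. *Oasl2* encodes a member of the oligoadenylate synthetase family, and *Rtp4* a protein that is induced by interferon.

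The response elements themselves are shown because they are the sequences that transcription factors of this pathway bind. RefSeq promoters, 250 bases before to 50 bases after an annotated start, were matched for 7 of the 9 genes, and *Usp18* and *Rtp4* had none. Each promoter had 1 exact match in the GRCm39 genome, and coordinates are those of GRCm39. The core of the response element, GAAA followed by any 2 bases and GAAA again, was searched on both strands and lay in the promoters of 4 of these 7 genes, *Isg15*, *Bst2*, *Ifit3* and *Ifitm3*, and in 3.44% of all 32851 promoters in the RefSeq table. Windows of 30 bases are written on the strand of the gene with the matches in capitals, and in *Ifit3* the core is on the opposite strand and reads as its reverse complement:

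Isg15: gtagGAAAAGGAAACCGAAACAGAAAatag

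Bst2: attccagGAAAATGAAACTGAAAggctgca

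Ifit3, upstream: cagtggtaagTTTCACTTTCctcttctggt

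Ifit3, downstream: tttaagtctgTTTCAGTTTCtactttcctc

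Ifitm3: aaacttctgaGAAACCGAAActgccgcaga

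The *Isg15* window, at chr4:156285328-156285357 on the minus strand, held 3 overlapping copies of the core, between 78 and 57 bases before the start. The *Bst2* window, at chr8:71990224-71990253 on the minus strand, held 2 overlapping copies, between 130 and 115 bases before the start. The *Ifit3* windows, at chr19:34560763-34560792 and chr19:34560797-34560826 on the plus strand, held 1 core each, between 156 and 147 and between 122 and 113 bases before the start. In *Ifitm3* the cores lay past the annotated start, and the window shown, at chr7:140590619-140590648 on the minus strand, covers the one 19 to 28 bases after it. Another *Ifitm3* core began 2 bases after the start. The sequence TTCNNNGAA, known as the gamma-activated site, was searched in the same way and found in the promoters of *Bst2*, *Ifit2* and *Ifitm3* and in 8.3% of all promoters, and in *Bst2* and *Ifitm3* it overlapped a core. The promoters of *Irf7* and *Oasl2* and the 2 listed for *Ifit2* held no core in these letters.

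All 9 genes were expressed at low levels. Library totals were between 2118317 and 3296398 counts in the 12 glial libraries, between 761481 and 1017972 in WT neurons and between 1473194 and 2017932 in KIN neurons. Levels are given in CPM (counts per 1000000, with TMM scaling). A count of 3, taken as the floor of detection, is 0.863 to 1.53 CPM in the glial libraries and 1.92 to 3.99 CPM in the neuronal ones, and this floor covers counting error only. Over the 18 libraries *Bst2* had 410 counts, *Ifitm3* 280, *Isg15* 133, *Oasl2* 117, *Irf7* 100, *Usp18* 73, *Ifit3* 54, *Rtp4* 37 and *Ifit2* 35, and these sums are not compared between genes. The microglia and astrocyte fractions carried the markers of their names, and the neuronal fraction did so in part. The sum of 6 microglia markers was 432 to 742 CPM in the microglia fraction and at most 11.3 CPM elsewhere, and that of 6 astrocyte markers was 192 to 424 CPM in the astrocyte fraction and at most 16.5 CPM elsewhere. The sum of 6 neuron markers was 94.4 to 161 CPM in the neuronal fraction against 30.7 to 88.5 CPM in astrocytes, and it rested on *Tubb3*, at 63.8 to 109 CPM in neurons, and *Gad1*. *Map2* overlapped between these fractions. *Snap25*, at 3.07 to 4.32 CPM in WT neurons and 7.46 to 23.6 CPM in WT astrocytes, was lower in the neuronal fraction of WT, and the mean levels of *Syt1* and *Rbfox3* were also lower in WT neurons than in WT astrocytes. The astrocyte fraction also held oligodendrocyte markers, at 291 to 468 CPM for 5 genes, the microglia fraction held neutrophil markers, at 23.7 to 94.2 CPM for 4 genes against at most 0.325 CPM elsewhere, and the neuronal fraction held T cell markers, at 30.2 to 34.6 CPM for 5 genes against at most 3.83 CPM in the glial fractions. WT neuronal replicate 2 stood apart with 218 CPM of the myelin gene *Mbp*, against at most 8.64 CPM in the other neuronal libraries.

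**Figure D1:**
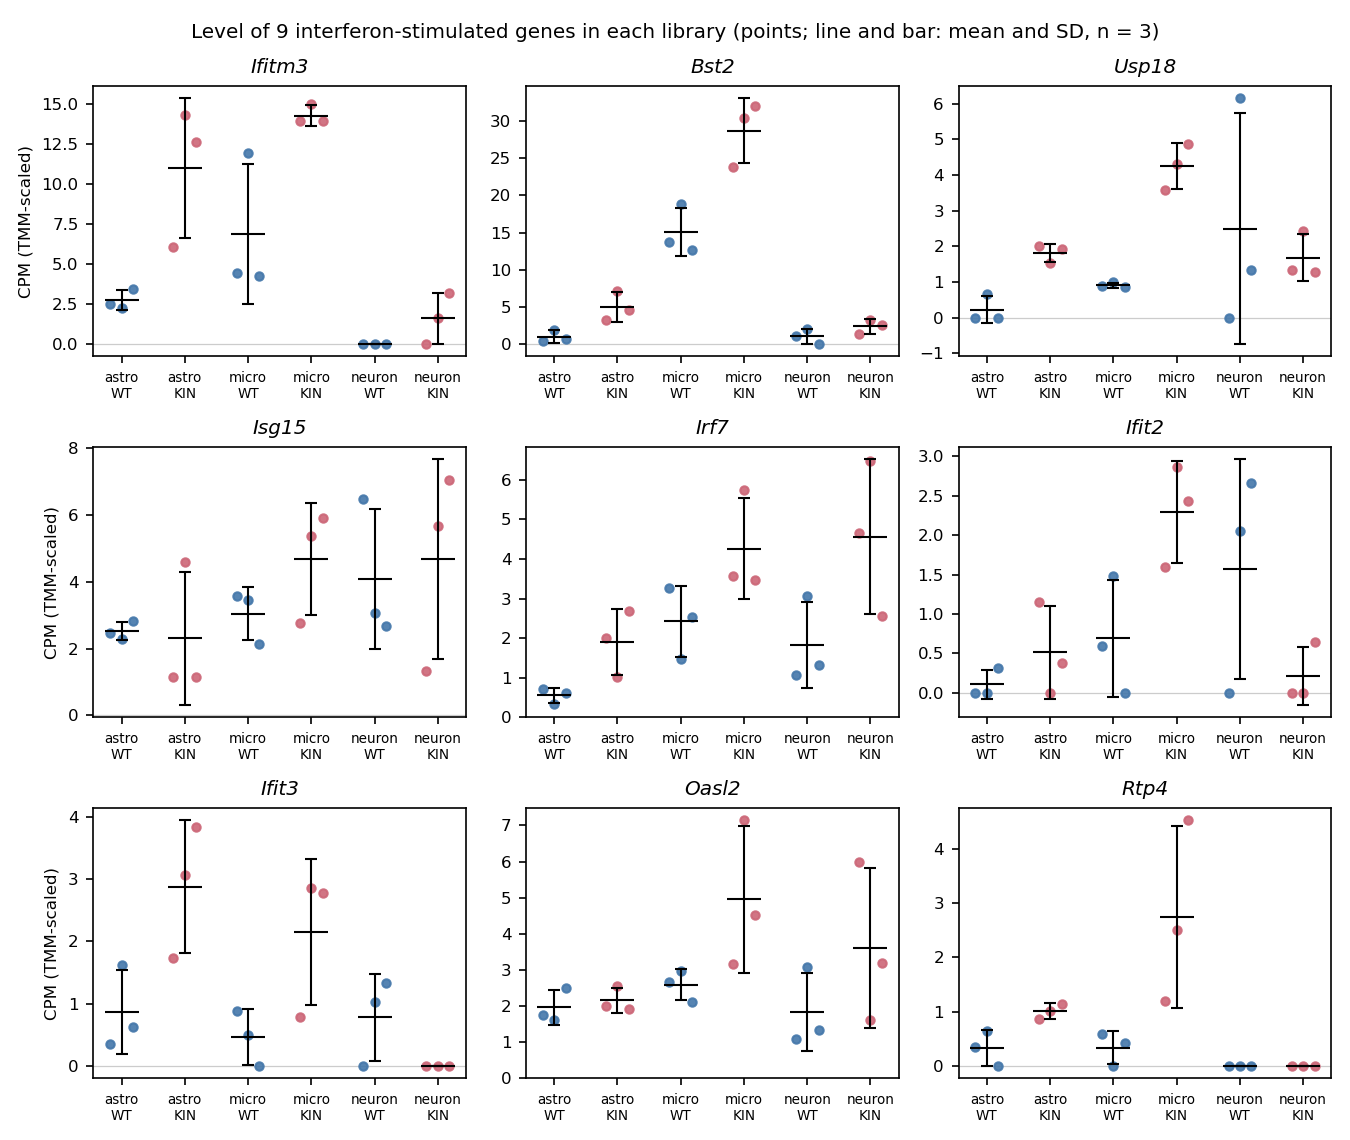
Level of each of the 9 genes in the 18 libraries. The vertical axis gives CPM with TMM scaling, blue points are WT and red points KIN libraries, and lines with bars are the mean and SD of 3 libraries. *Bst2* was highest in KIN microglia, between 23.8 and 32 CPM, and *Rtp4* had no count in any neuronal library.

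The membrane restriction factors come first. *Ifitm3* (ENSMUSG00000025492, minus strand of chromosome 7 from 140589499 to 140591282) had 7, 7 and 11 counts in WT astrocytes and 21, 28 and 33 in KIN astrocytes. In microglia it had 15, 24 and 10 counts in WT and 35, 42 and 40 in KIN libraries. In neurons it had no count in WT and 0, 2 and 5 in KIN. Every KIN library lay above every WT library in both glial fractions on the CPM scale, and the neuronal groups overlapped at 0. WT astrocytes averaged 2.73 ± 0.627 CPM and KIN astrocytes 11 ± 4.37 CPM (SD, n = 3 for every mean). WT microglia averaged 6.86 ± 4.35 CPM and KIN microglia 14.3 ± 0.661 CPM. The wide spread of WT microglia came from replicate 2, at 11.9 CPM against 4.45 and 4.24 CPM. This library stood apart in other ways, with a TMM factor of 0.6129 against 1.19 and 1.011. Its microglia marker *Csf1r* was at 240 CPM against 123 and 125 CPM.

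*Bst2* (ENSMUSG00000046718, minus strand of chromosome 8 from 71986895 to 71990114) had 1, 6 and 2 counts in WT astrocytes and 11, 14 and 12 in KIN astrocytes. Its counts were 46, 38 and 30 in WT microglia and 60, 85 and 92 in KIN microglia. Neurons had 1, 2 and 0 counts in WT and 2, 4 and 4 in KIN. The glial groups did not overlap between genotypes, and the lowest microglia library of *Bst2*, at 12.7 CPM, was above the highest astrocyte library, at 7.16 CPM. The means of *Bst2* were 0.975 ± 0.853 CPM for WT and 4.97 ± 2.03 CPM for KIN astrocytes (SD, n = 3), and 15.1 ± 3.28 CPM for WT and 28.7 ± 4.37 CPM for KIN microglia.

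*Isg15* and its protease *Usp18* are linked in function. The protease gene *Usp18* (ENSMUSG00000030107, plus strand of chromosome 6 from 121222848 to 121247877) had 0, 2 and 0 counts in WT and 7, 3 and 5 in KIN astrocytes. It had 3, 2 and 2 counts in WT and 9, 12 and 14 in KIN microglia. The WT glial libraries were thus all at or below 3 counts, and every KIN library of a glial fraction was above every WT library of that fraction in CPM. Neurons had 0, 6 and 1 counts in WT and 2, 3 and 2 in KIN, and the WT library with 6 counts was replicate 2, the one that stood apart in *Mbp*. *Isg15* (ENSMUSG00000035692, minus strand of chromosome 4 from 156283883 to 156285303) had 7, 7 and 9 counts in WT and 4, 9 and 3 in KIN astrocytes. In microglia it had 12, 7 and 5 counts in WT and 7, 15 and 17 in KIN, and in neurons 6, 3 and 2 in WT and 2, 7 and 11 in KIN. The genotypes of *Isg15* overlapped in all 3 fractions.

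The transcription factor *Irf7* (ENSMUSG00000025498, minus strand of chromosome 7 from 140842619 to 140846398) had 2, 1 and 2 counts in WT and 7, 2 and 7 in KIN astrocytes. In microglia it had 11, 3 and 6 counts in WT and 9, 16 and 10 in KIN, and in neurons 1, 3 and 1 in WT and 7, 8 and 4 in KIN. Its KIN libraries were above the WT libraries in both glial fractions in CPM, while the neuronal groups overlapped, between 1.08 and 3.07 CPM in WT and 2.56 and 6.47 CPM in KIN. The means of *Irf7* in KIN neurons, 4.56 ± 1.96 CPM (SD, n = 3), and in KIN microglia, 4.26 ± 1.28 CPM, did not differ beyond their spread.

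The RNA-binding *Ifit2* (ENSMUSG00000045932, plus strand of chromosome 19 from 34527932 to 34554524) had 0, 0 and 1 counts in WT and 4, 0 and 1 in KIN astrocytes. Microglia had 2, 3 and 0 counts in WT and 4, 8 and 7 in KIN, and neurons 0, 2 and 2 in WT and 0, 0 and 1 in KIN. Its neighbour *Ifit3* (ENSMUSG00000074896, plus strand from 34560899 to 34566443) had 1, 5 and 2 counts in WT and 6, 6 and 10 in KIN astrocytes. Microglia had 3, 1 and 0 counts of *Ifit3* in WT and 2, 8 and 8 in KIN, and neurons 0, 1 and 1 in WT and none in KIN. *Ifit3* was the member whose highest mean was in astrocytes, at 2.87 ± 1.06 CPM (SD, n = 3) in KIN astrocytes and 2.15 ± 1.17 CPM in KIN microglia, and these did not differ beyond their spread.

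*Oasl2* (ENSMUSG00000029561, plus strand of chromosome 5 from 115034997 to 115050295) had 5, 5 and 8 counts in WT and 7, 5 and 5 in KIN astrocytes. Microglia had 9, 6 and 5 counts in WT and 8, 20 and 13 in KIN, and neurons 1, 3 and 1 in WT and 9, 2 and 5 in KIN. The genotypes did not overlap in microglia, between 2.12 and 2.97 CPM in WT and 3.17 and 7.16 CPM in KIN, and they overlapped in astrocytes and neurons. *Rtp4* (ENSMUSG00000033355, plus strand of chromosome 16 from 23337811 to 23432972) had 1, 2 and 0 counts in WT and 3, 2 and 3 in KIN astrocytes, none above 3. Microglia had 2, 0 and 1 counts of *Rtp4* in WT and 3, 7 and 13 in KIN. No neuronal library had a count of *Rtp4*, which allows a level of up to 1.92 to 3.99 CPM per library.

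The first question was whether the *Atxn2* mutation changed these genes within a fraction. In astrocytes, *Ifitm3* and *Bst2* rose in KIN and no member fell. Of the 9 genes, 7 had at least 5 counts in at least 2 of the 6 libraries and were tested, and *Ifit2* and *Rtp4* were not. *Ifitm3* rose by a log2 fold change of 1.91 (SE 0.35, edgeR adjusted *p* = 0.000164) and *Bst2* by 2.19 (SE 0.52, edgeR adjusted *p* = 0.00292). These 2 calls compare with 2.43% of 11751 genes called higher in the same fit, in which 6.42% were called lower. Both were called under each alternative that tested them, at edgeR or DESeq2 adjusted *p* of 1.1e-06 to 0.0066 for *Ifitm3* and 0.000135 to 0.0371 for *Bst2*.

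The other astrocyte values did not pass. *Usp18* had a log2 fold change of 2.84 (SE 1.01, edgeR adjusted *p* = 0.0559), *Irf7* of 1.75 (SE 0.79, adjusted *p* = 0.148) and *Ifit3* of 1.60 (SE 0.62, adjusted *p* = 0.0841). The 15 KIN and 2 WT counts of *Usp18* gave a ratio of 8.5 with an exact 95% counting interval from 1.98 to 76.6. Counting intervals, here and below, pool the libraries of a group and leave out the spread between libraries. They were computed only where 1 group had few counts. *Usp18* and *Irf7* entered the test only through their KIN libraries, so that their being higher there was fixed by the filter. Without WT replicate 2, *Ifit3* and *Usp18* were called as well and the members called rose from 2 to 4. *Usp18* was also called with no filter and with all 18 libraries in 1 fit, each with 3 members called. *Isg15*, at -0.32 (SE 0.52, edgeR adjusted *p* = 0.767), and *Oasl2*, at 0.08 (SE 0.52, adjusted *p* = 0.947), did not pass either. *Bst2* and *Ifit3* reached 5 counts in 1 WT library only and so also needed KIN libraries to pass, which favoured the call of *Bst2*. Of the 3 members that passed on WT libraries alone, *Ifitm3*, *Isg15* and *Oasl2*, only *Ifitm3* had every KIN library above every WT library, as had 13.8% of all tested genes. *Usp18*, *Ifit3*, *Irf7* and *Bst2* did not overlap either.

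Marker genes moved with genotype in the astrocyte fraction. The 6 astrocyte markers summed to 291 to 424 CPM in WT and 192 to 205 CPM in KIN, with *Gja1* and *Fgfr3* called lower. *Gfap*, of the same list, was at 0.80 (edgeR adjusted *p* = 0.037), under the fold threshold, with every KIN library above every WT library. The 5 oligodendrocyte markers summed to 291 to 462 CPM in WT and 458 to 468 CPM in KIN, with *Mog* called higher. The 6 neuron markers overlapped in their sum, at 34.7 to 88.5 CPM in WT and 30.7 to 49.4 CPM in KIN, with 4 called lower and *Tubb3* at 0.92 (edgeR adjusted *p* = 0.0219), under the fold threshold. The 5 border macrophage markers summed to 4.22 to 9.08 CPM in WT and 1.53 to 3.74 CPM in KIN, with *Ms4a7*, the 1 that passed the filter (through WT), called lower at -1.58 (edgeR adjusted *p* = 0.0165), and the 5 T cell markers to 2.27 to 3.13 CPM and 1.91 to 2.05 CPM, with none called and *Trbc2* at 0 in both. The part of these shifts in the result was not tested. The 6 microglia markers summed to 5.52 to 9.7 CPM in WT and 4.03 to 7.16 CPM in KIN astrocytes, and their mean level in KIN astrocytes was 1.09% of that in KIN microglia. *Bst2* in KIN astrocytes was at 17.3% and *Ifitm3* at 77% of the level in KIN microglia. *Aif1* and *P2ry12* were at 0 in all WT astrocyte libraries and *Tmem119* in all KIN astrocyte libraries. The endothelial marker sums overlapped, at 42.2 to 47.6 CPM in WT and 37.1 to 68.6 CPM in KIN. In bulk RNA of a fraction, fewer cells of a type and less RNA per cell cannot be told apart.

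Scaling also differed between the astrocyte genotypes. With library totals in place of TMM, an alternative chosen after seeing the data, the median log2 fold change of all genes shifted to -0.422, and the calls split into 38 higher and 1587 lower in place of 285 and 755. *Ifitm3*, at 1.46 (edgeR adjusted *p* = 0.00524), and *Bst2*, at 1.76 (adjusted *p* = 0.0175), remained called, and *Oasl2* turned to -0.33.

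**Figure D2:**
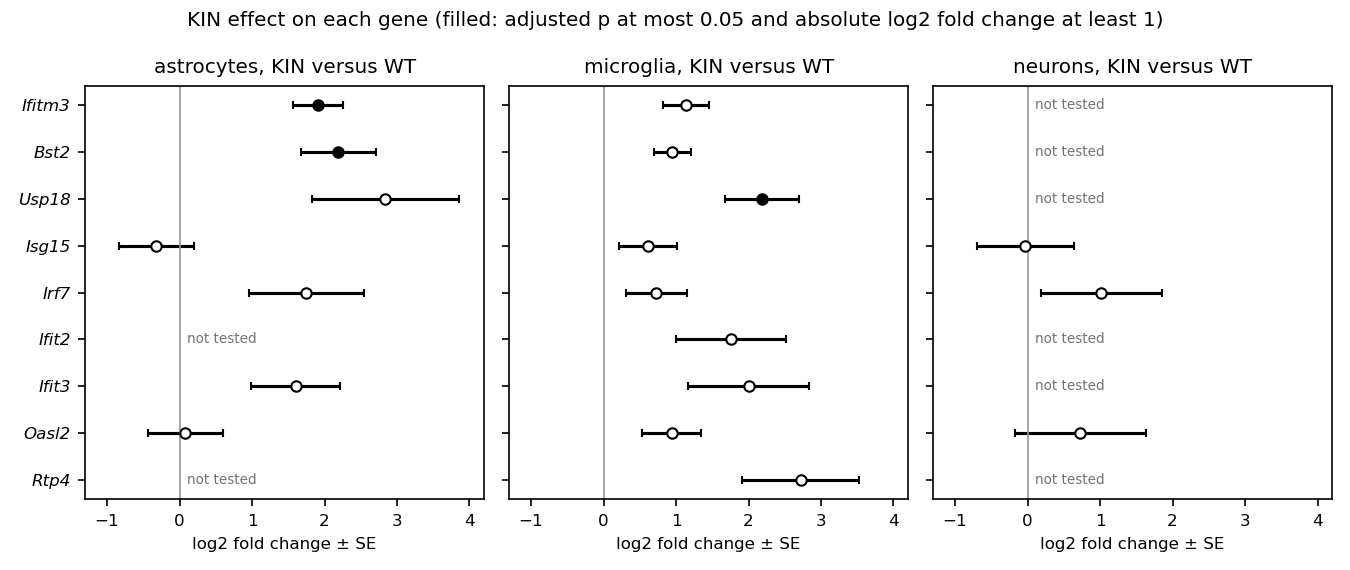
Log2 fold change of KIN against WT for each gene and fraction, with its SE from edgeR. Filled points passed an adjusted *p* of 0.05 and an absolute log2 fold change of 1, which holds for *Ifitm3* and *Bst2* in astrocytes and *Usp18* in microglia; genes with too few counts are marked as not tested.

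In microglia, *Usp18* rose and the 8 other members did not pass. *Usp18*, *Ifit2*, *Ifit3* and *Rtp4* had at most 3 counts in each WT microglia library and passed the filter only through KIN, so that their being higher in KIN, the call of *Usp18* included, was favoured by the filter. The 5 other members also had fitted values above 0. *Usp18* had a log2 fold change of 2.18 (SE 0.51, edgeR adjusted *p* = 0.0265), from a WT mean of 0.909 ± 0.073 CPM to a KIN mean of 4.25 ± 0.653 CPM (SD, n = 3). This 1 call compares with 0.739% of 10831 genes called higher. It was lost when any library but WT replicate 2 was left out, at edgeR adjusted *p* of 0.172 without WT replicate 1, 0.129 without WT replicate 3, and 0.08, 0.105 and 0.135 without KIN replicates 1, 2 and 3, and *Usp18* had no adjusted *p* in DESeq2, where its unadjusted *p* was 0.00451.

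*Bst2* had a log2 fold change of 0.95 (SE 0.25, edgeR adjusted *p* = 0.0462), which passed the *p* threshold, as 0.84% of all genes did in this direction, and missed the fold threshold. *Ifitm3* reached 1.14 (SE 0.32, adjusted *p* = 0.0674 by edgeR). Without WT replicate 2, which had the highest *Ifitm3* level of the WT microglia, *Ifitm3* and *Bst2* were both called besides *Usp18*, and the calls over all genes rose from 165 to 452. Without any other 1 of the 6 libraries no member was called and the calls over all genes fell to between 35 and 48, so the share of 0.739% called higher rests on the full set of libraries. *Rtp4* had a value of 2.72 (SE 0.81, edgeR adjusted *p* = 0.0876), and its 23 KIN and 3 WT counts gave a ratio of 7.25 with an exact 95% counting interval from 2.19 to 37.7. *Ifit3*, at 2.00 (SE 0.83, adjusted *p* = 0.295), and *Ifit2*, at 1.76 (SE 0.76, adjusted *p* = 0.321), were in the same fit of edgeR.

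The remaining microglia members had smaller values in the same edgeR fit. *Oasl2* was at 0.94 (SE 0.41, adjusted *p* = 0.333), *Irf7* at 0.73 (SE 0.42, adjusted *p* = 0.54) and *Isg15* at 0.62 (SE 0.40, adjusted *p* = 0.619). Of the 5 members that passed the filter on WT libraries alone, every KIN library was above every WT library for 4, all but *Isg15*, and the same held for 8.49% of all tested genes. *Usp18*, *Ifit2* and *Rtp4* did not overlap either and *Ifit3* did. Beside these values, the sum of 5 border macrophage markers was 8.91 to 11.6 CPM in WT and 14.7 to 18.8 CPM in KIN microglia, with no marker at 0 in either group and none called, and its part was not tested. The 6 neuron markers summed to 12.9 to 39.8 CPM in WT and 5.37 to 7.93 CPM in KIN microglia with none at 0, and *Syt1* and *Snap25* were called lower. The 5 endothelial markers overlapped in their sum, at 39 to 53 CPM in WT and 46.6 to 50.5 CPM in KIN, with *Cldn5* called lower and *Pecam1* higher in every KIN library without a call. The 5 oligodendrocyte markers summed to 19.9 to 26.4 CPM in WT and 12.7 to 14.3 CPM in KIN, and the 4 pericyte markers to 2.97 to 3.86 CPM and 1.43 to 1.98 CPM, with *Kcnj8* at 0 in KIN. None of the 3 oligodendrocyte markers that passed the filter was called, and no pericyte marker passed it. The 4 neutrophil markers overlapped, at 52.6 to 70.8 CPM in WT and 23.7 to 94.2 CPM in KIN, and neither of the 2 that passed the filter was called. KIN replicate 2 stood apart, with *S100a8* at 54.8 CPM against 15.5 and 15.3 CPM. It was also the highest KIN library for *Oasl2* (7.16 CPM), *Irf7* (5.73 CPM), *Ifitm3* (15 CPM), *Ifit2* (2.86 CPM) and *Ifit3* (2.86 CPM). *Usp18*, *Isg15*, *Bst2* and *Rtp4* were highest in KIN replicate 3. The part of these markers in the result was not tested either. The 6 microglia markers overlapped in their sum, at 432 to 742 CPM in WT and 507 to 568 CPM in KIN, with none called. *P2ry12*, of the same list, was lower in every KIN library, at 22.6, 41.1 and 23.3 CPM in WT and 15.5, 19.7 and 16.7 CPM in KIN.

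In neurons no member passed. *Irf7*, at 1.02 (SE 0.83), *Oasl2*, at 0.73 (SE 0.90), and *Isg15*, at -0.03 (SE 0.67), were the 3 members tested, with edgeR adjusted *p* of 0.97 or more, 0 members with an unadjusted *p* under 0.05 in edgeR or DESeq2, and 0.0148% of 6765 genes called in either direction. *Irf7* and *Oasl2* passed the filter only through KIN. The other 6 members had too few counts. *Ifitm3* had 7 counts in the KIN and none in the WT neurons, which are less deeply sequenced, so a difference was not detectable at this depth.

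Whether the KIN effect differed between glial fractions was tested as an interaction over the 12 glial libraries. No member was called, against 1.17% of 13277 genes. *Bst2* had the lowest *p*, with a difference on the log2 scale, microglia minus astrocytes, of -1.24 (SE 0.58, edgeR unadjusted *p* = 0.0353, adjusted *p* = 0.333), and it was the only member with an unadjusted *p* below 0.05 in edgeR, while DESeq2 gave none. For *Usp18* the difference was -0.65 (SE 0.99, edgeR adjusted *p* = 0.834) and for *Ifitm3* -0.78 (SE 0.50, adjusted *p* = 0.54). A call in astrocytes alone or in microglia alone is therefore not shown to differ between them.

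The levels were next compared between fractions of the same genotype. In WT brains, *Bst2*, *Ifitm3* and *Irf7* were called higher in microglia than in astrocytes, 3 of 5 members tested against 12% of 12305 genes called higher. *Irf7*, with at most 2 counts in each WT astrocyte library, passed the filter only through microglia, which favoured its call, and *Bst2* reached 5 counts in 1 WT astrocyte library only. *Bst2* differed by a log2 value of 3.87 (SE 0.47, edgeR adjusted *p* = 5.61e-12), *Ifitm3* by 1.27 (SE 0.46, adjusted *p* = 0.0284) and *Irf7* by 2.12 (SE 0.76, adjusted *p* = 0.0254). The calls of *Ifitm3* and *Irf7* were lost in DESeq2, with library totals as the scale, where the median of all genes shifted to -0.641, and without any 1 of the WT astrocyte libraries, where *Bst2* alone was called. Without WT microglia replicate 2 *Ifitm3* was not called, and without replicate 1 or 3 *Irf7* was not.

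In KIN brains, 5 of the 9 members were called higher in microglia than in astrocytes, against 17.5% of 12271 genes, and *Ifit2* passed the filter only through microglia. *Bst2* differed by 2.61 (SE 0.28, edgeR adjusted *p* = 3.74e-15), *Isg15* by 1.21 (SE 0.47, adjusted *p* = 0.0301), *Oasl2* by 1.21 (SE 0.45, adjusted *p* = 0.0222), *Usp18* by 1.17 (SE 0.48, adjusted *p* = 0.0417) and *Ifit2* by 1.83 (SE 0.77, adjusted *p* = 0.0462). *Bst2* held its call under every alternative run. It was the only call without KIN astrocyte replicate 3 or KIN microglia replicate 2, while 2 members were called without KIN astrocyte replicate 1 or KIN microglia replicate 3, and 3 without KIN astrocyte replicate 2. DESeq2 called *Bst2* alone, and with replicate number as a block in the edgeR fit *Bst2* and *Oasl2* were called. *Ifitm3* did not pass here, at 0.45 (SE 0.27, edgeR adjusted *p* = 0.185), with 6.04 to 14.3 CPM in KIN astrocytes and 13.9 to 15 CPM in KIN microglia.

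Neurons were the fraction with the fewest member counts, and also the least deeply sequenced. The summed member level was 9.721 to 20.48 CPM in WT neurons and 8.459 to 11.36 CPM in WT astrocytes. In KIN it was 14.63 to 21.04 CPM in neurons and 20.14 to 35.3 CPM in astrocytes. Several calls against them were favoured by the filter, since *Bst2* and *Ifitm3* in WT microglia, *Ifitm3* in WT astrocytes, *Bst2*, *Ifit2*, *Ifit3* and *Rtp4* in KIN microglia, and *Ifit3* in KIN astrocytes passed it only through the glial fraction. Against WT neurons, *Bst2* and *Ifitm3* were called higher in WT microglia, 2 of 5 members tested against 11.7% of genes, and *Ifitm3* was the 1 member called higher in WT astrocytes, against 12%. *Bst2* was higher in WT microglia by a ratio of 13 with an exact 95% counting interval from 4.34 to 64.1, on 114 and 3 counts. *Ifitm3* had no count in WT neurons and was at least 2-fold higher in WT microglia with each neuronal library at the floor of 3 counts. Its WT microglia libraries were at 4.45, 11.9 and 4.24 CPM, against a mean floor of 3.43 CPM. The bound thus rests in part on WT microglia replicate 2. The mean level of *Ifitm3* in WT astrocytes was under that floor, and its call there was lost without WT neuronal replicate 1 or 2. Of the KIN comparisons, 5 members, *Bst2*, *Ifit2*, *Ifit3*, *Ifitm3* and *Rtp4*, were called higher in microglia than in neurons, against 15.2% of genes, and 2, *Ifit3* and *Ifitm3*, were called higher in astrocytes than in neurons, against 16.9%. *Ifitm3* differed by 3.14 (SE 0.46, edgeR adjusted *p* = 5.4e-09) from neurons to microglia and by 2.70 (SE 0.49, adjusted *p* = 2.37e-06) to astrocytes in KIN. The 19 microglia and 1 neuronal counts of *Ifit2* in KIN gave a ratio of 9.98 with an exact 95% counting interval from 1.59 to 415. *Rtp4* was at least 1.3-fold higher in KIN microglia than in KIN neurons, and *Ifit3* at least 1.36-fold higher in KIN astrocytes, against the same floor. The 5 calls between KIN microglia and neurons became 3 without KIN microglia replicate 2 or 3. The call of *Ifit2* was also lost in DESeq2 and without KIN neuronal replicate 1 or 2. That of *Rtp4* was lost with transcripts in place of gene sums. *Irf7*, *Isg15* and *Oasl2* were not called between microglia and neurons in either genotype. Nor were they called between astrocytes and neurons. In KIN, astrocytes minus neurons, *Irf7* was at -1.09 (SE 0.53, edgeR adjusted *p* = 0.11) and *Isg15* at -1.13 (SE 0.54, adjusted *p* = 0.0991). *Oasl2* was at -0.74 (SE 0.55, adjusted *p* = 0.322). The WT values were -1.71, -0.74 and 0.03 in the same order. The median of all genes was not centred in these comparisons, at 0.299 and 0.349 for WT microglia and WT astrocytes against neurons and at 0.058 and 0.178 in KIN.

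The transcript entries behind the sums differed between members. For transcript references the authors list Bowtie2 in sensitive local mode and HTSeq in union mode without a cutoff on mapping quality. They do not state how a read shared by several transcripts of a gene was placed. The split of *Irf7* and *Oasl2* counts between transcript types is therefore uncertain. *Ifitm3*, *Isg15* and *Ifit3* have 1 entry each, and 99% of *Bst2* and 89% of *Usp18* counts fell on 1 transcript. *Irf7* has 13 entries, and 51 of its 100 counts were assigned to transcripts annotated as retained introns, forms that keep an intron and are not translated as the full protein. For *Oasl2* these were 79 of 117 counts, 67.5%, and 65 of them lay on a single-exon entry at positions 115039895 to 115042002 of chromosome 5. The protein-coding entries of *Oasl2* had 1, 0 and 0 counts in the WT and 3, 2 and 2 in the KIN astrocyte libraries. In microglia they had 2, 0 and 0 counts (WT) and 2, 6 and 4 counts (KIN). Its retained-intron entries had 4, 4 and 8 counts (WT) and 2, 2 and 2 counts (KIN) in astrocytes, and 6, 6 and 4 counts (WT) and 6, 11 and 9 counts (KIN) in microglia. The near-zero fold change of the *Oasl2* sum in astrocytes joined, as deposited, 16 retained-intron counts in WT and 6 in KIN with 1 protein-coding count in WT and 7 in KIN, besides 1 and 4 counts of other types. *Irf7* protein-coding entries had 2 counts in WT and 11 in KIN astrocytes, 4 and 13 in microglia, and 4 and 8 in neurons.

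**Figure D3:**
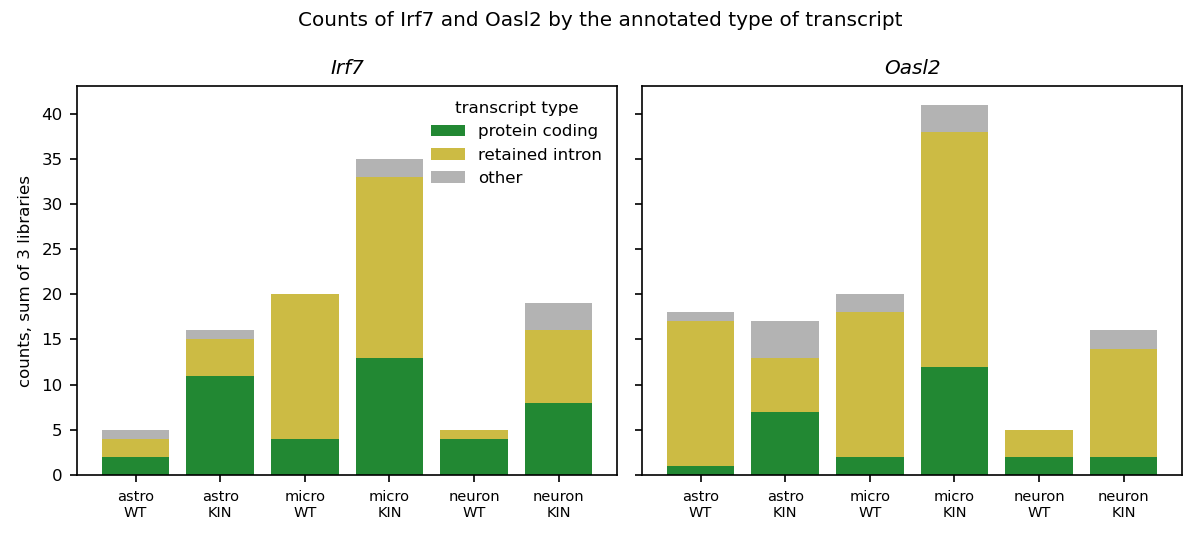
Counts of *Irf7* and *Oasl2* summed over the 3 libraries of each group, by the type GENCODE gives each transcript. As deposited, and with the placement of shared reads not stated, 79 of 117 *Oasl2* counts lie on retained-intron transcripts. On the same split, the protein-coding counts of both genes are higher in KIN than in WT astrocytes and microglia.

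Sums without the retained-intron transcripts, chosen after seeing the data, left the calls as they were in the KIN comparisons of astrocytes, microglia and neurons, at 2, 1 and 0 members. Fewer of the 9 genes then reached the filter, 6 in astrocytes, 7 in microglia and 1 in neurons. *Oasl2* and *Usp18* lost their call between KIN microglia and KIN astrocytes. Between WT microglia and WT astrocytes 3 members were tested, and *Irf7* no longer passed the filter. Some members also share sequence with other genes, and counts were taken without regard to strand. Of the 50-base windows of the *Ifitm3* transcript, 59.7% also occur in the antisense lncRNA *Gm57251*, 46.7% of those of *Ifit3* in its copy *Ifit3b*, and 26.6% of those of *Isg15* in the antisense lncRNA *Gm46878*. Reads from these stretches cannot be told apart. *Gm57251* and *Gm46878* have no entry under their names in the count table, so how reads of these lncRNAs were counted is not known. *Ifit3b* had between 0 and 5 counts in each library.

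The other genes of the pathway were counted on lists of gene symbols. Of 21 interferon ligands, *Ifnb1* and 14 others had no count in any library, and *Ifna2*, *Ifna16*, *Ifne*, *Ifng* and *Ifnl2* had at most 3 counts in a library. *Ifnz*, an interferon zeta gene, was the exception. It had 28, 20 and 20 counts in WT and 13, 14 and 14 in KIN microglia and 0 to 3 elsewhere, and its KIN value in microglia was a log2 fold change of -0.81 (SE 0.29, edgeR adjusted *p* = 0.201), with every KIN library below every WT library, as for 7.53% of all genes tested. Of 15 receptors and transducers, 11 were tested in astrocytes, 14 in microglia and 7 in neurons, and none was called by edgeR or DESeq2, while 1, 3 and 0 had an unadjusted *p* of at most 0.05 in edgeR. The 1 in astrocytes was the interferon-gamma receptor gene *Ifngr2*, at -0.68 (SE 0.21, edgeR adjusted *p* = 0.0271), which missed the fold threshold alone. *Stat2*, which encodes a transducer of type I interferon signals, was at 1.04 (SE 0.41, adjusted *p* = 0.257) in the microglia fit of edgeR. Of 25 names of sensors and interferon regulatory factors, 24 were in the table, and none was called by either tool among 13 tested in astrocytes, 23 in microglia and 6 in neurons, where 0, 4 and 1 had an unadjusted *p* of at most 0.05 in edgeR. None of the 6 genes for ISG15 conjugation was called in any fraction by either tool, and 1 had an unadjusted *p* of at most 0.05 in edgeR, in microglia.

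Among 64 other interferon-stimulated genes, 31 were tested in astrocytes, with 3 called higher and 2 lower, against 2.43% and 6.42% of all genes. The genes called higher were *Ifi27*, which encodes a mitochondrial protein, at a log2 fold change of 1.66 (SE 0.27, edgeR adjusted *p* = 2.14e-05), *Ifi35* at 1.78 (SE 0.58, adjusted *p* = 0.0332) and *Rnf213*, which encodes a large ubiquitin ligase, at 1.00 (SE 0.31, adjusted *p* = 0.0227). *Ifi27* was at 3.88, 10.1 and 5.95 CPM in WT and 22.4, 23 and 18.7 CPM in KIN astrocytes. The genes called lower were *Sp110*, a nuclear body protein gene, at -1.68 (SE 0.52, adjusted *p* = 0.0237 by edgeR), and *Slfn9*, of the Schlafen family, at -1.08 (SE 0.36, adjusted *p* = 0.0365). *Ifi35* passed the filter only with KIN and *Sp110* only with WT libraries, which favoured their calls. DESeq2 called 1 gene of this list, *Ifi27*. An unadjusted edgeR *p* of 0.05 or less was reached by 10 of the 31 genes and by 2928 of all 11751.

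In microglia, 49 genes of the same list were tested, with 5 called higher and none lower, against 0.739% of all genes called higher. *Lgals3bp*, a secreted glycoprotein gene, was at 2.37 (SE 0.42, edgeR adjusted *p* = 0.00312), with 2.67, 19.3 and 2.97 CPM in WT and 52.3, 31.9 and 34.4 CPM in KIN libraries, where the high WT library was replicate 2. *Rnf213* was at 1.36 (SE 0.27, adjusted *p* = 0.00966 by edgeR), *Ifi27l2a* at 1.68 (SE 0.40, adjusted *p* = 0.0283), *Zc3hav1*, which encodes the antiviral protein ZAP, at 1.07 (SE 0.26, adjusted *p* = 0.0363), and *Parp14*, an ADP-ribosyltransferase gene, at 1.16 (SE 0.29, adjusted *p* = 0.0408). DESeq2 called none of these, and 24 of the 49 had an unadjusted *p* of at most 0.05 in edgeR, as did 1298 of all 10831 genes. The 5 called genes passed the filter on WT libraries alone, but others of the list, such as *Ifi207*, *Phf11d*, *Trim34a* and *Helz2*, passed only through KIN, so that the signs over the list were in part set by the filter. In neurons 20 genes of the list were tested and none was called by edgeR or DESeq2, and the unadjusted edgeR *p* of 1 was 0.05 or less.

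Paralogs of the members and genes of the interferon-gamma response gave single calls. Of 19 paralogs, 2 were tested in astrocytes with none called by edgeR or DESeq2, though the unadjusted edgeR *p* of 1 was 0.05 or less, and 8 in microglia, where *Oas1g*, an oligoadenylate synthetase gene, was called at 2.39 (SE 0.54, edgeR adjusted *p* = 0.0202). It had 4, 0 and 3 counts in WT and passed the filter only through KIN, which favoured its call. *Oas1g* was at 1.19, 0 and 1.27 CPM in WT and 5.55, 5.37 and 3.83 CPM in KIN microglia. Of 29 genes for interferon-gamma inducible GTPases and antigen processing, 12 were tested in astrocytes, where *Psme1*, a proteasome activator subunit gene, rose by 1.63 (SE 0.36, edgeR adjusted *p* = 0.00139) and the guanylate-binding protein gene *Gbp5* fell by 1.24 (SE 0.34, adjusted *p* = 0.00911). In microglia 19 were tested, and the chemokine gene *Cxcl10*, with 5, 4 and 2 counts in WT and so also dependent on KIN libraries to pass the filter, was called at 1.99 (SE 0.44, edgeR adjusted *p* = 0.0172), from 1.48, 1.98 and 0.848 CPM in WT to 7.13, 5.37 and 4.87 CPM in KIN. DESeq2 called *Psme1* alone of these 4 genes.

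**Figure D4:**
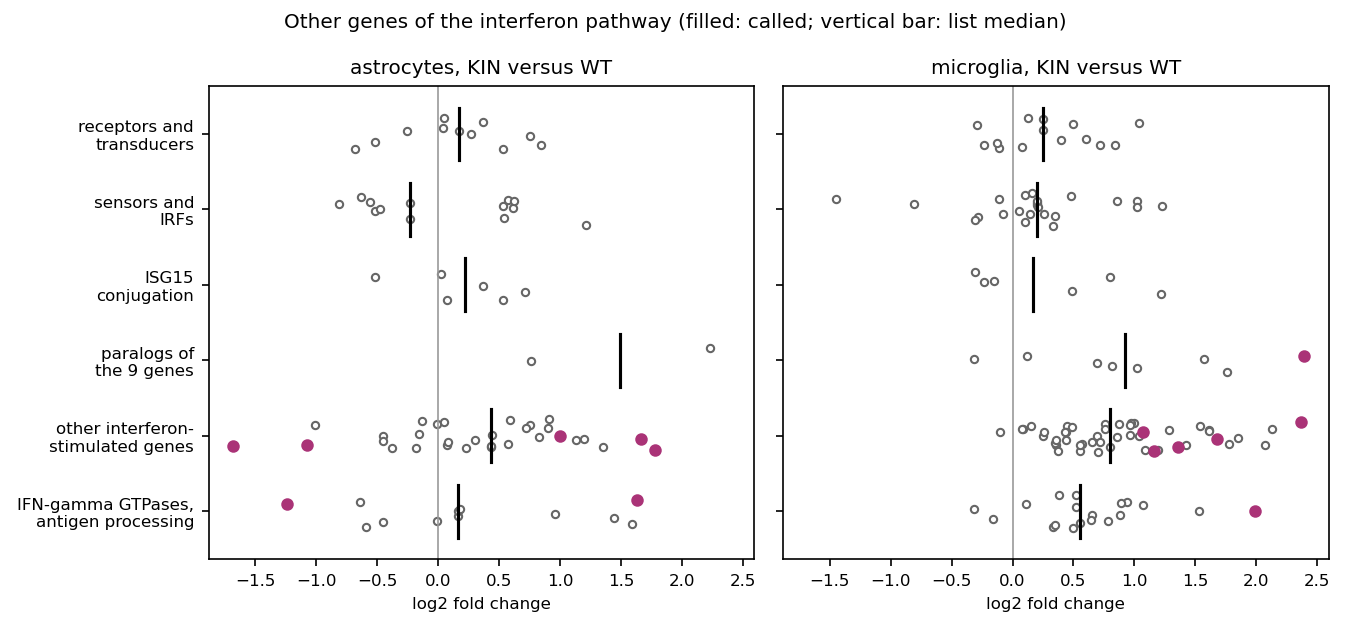
Log2 fold change of KIN against WT in astrocytes and microglia for the tested genes of 6 pathway lists, without the 9 members. Each point is a gene, filled points were called by edgeR and the vertical bars are list medians, which for the other interferon-stimulated genes lie at 0.43 in astrocytes and 0.8 in microglia.

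The summed level of the 9 genes was 8.459 to 11.36 CPM in WT and 20.14 to 35.3 CPM in KIN astrocytes, 25.01 to 41.57 CPM in WT and 54.3 to 76.27 CPM in KIN microglia, and 9.721 to 20.48 CPM in WT and 14.63 to 21.04 CPM in KIN neurons. The genotypes did not overlap within astrocytes or within microglia and did so in neurons, and KIN astrocytes overlapped WT microglia. The sums rest on *Bst2* more in microglia, where its 3 WT libraries held 12.7 to 18.8 CPM, than in WT astrocytes, where they held 0.352 to 1.95 CPM. Over the 18 libraries and 13543 genes, the genes whose log2 CPM was most like the mean log2 CPM of the 9 members were *Zc3hav1* (Pearson's r = 0.934), *Gm13196* (r = 0.883), *Tec* (r = 0.871), *Bcl2a1a* (r = 0.848) and *Cd9* (r = 0.847). These correlations describe libraries that fall into 3 fractions of unequal depth.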

How the data were processed

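The authors sequenced 3′ ends of RNA with unique molecular identifiers, trimmed reads with cutadapt 4.6, mapped them stepwise with Bowtie2 2.4.4 to mm39 and counted them with HTSeq 2.0.2 without strand. The deposited table holds whole, non-normalized counts per transcript and library; 36 further per-sample columns and the authors' own comparison columns (fold changes, *p* values) were not used, and 137 entries without a name kept their identifiers. Groups came from the sample labels.

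Counts were summed by gene name. Genes with at least 5 counts in at least 2 libraries of a fit were tested with the quasi-likelihood test of edgeR 4.0.16 with TMM scaling and Benjamini-Hochberg adjustment over all genes, and calls had an adjusted *p* of 0.05 or less with a log2 fold change of 1 or more in size. KIN effects used the 6 libraries of a fraction, the interaction 12, and fraction comparisons the 9 libraries of a genotype. CPM are TMM-scaled over all 18 libraries. Transcript types and coordinates came from GENCODE vM39, which held 99.4% of the transcript identifiers. The fits were run on simulated data in which all genes shared 1 dispersion, so differences in spread between genes were left out. Of tested genes with a simulated log2 change of 2, 148 of 182 were called in astrocytes and 143 of 182 in microglia. In neurons 88 of 144 were called, and in the interaction 71 of 193. The members and lists were chosen with earlier results of these data known. All members are named, with up to 5 called genes per list and comparison, every ligand with a count, and the 5 genes most alike.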

Additional observations from a re-analysis of the deposited data

How the results depend on the processing

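Low counts limit these results: several members sat at or below 3 counts per library, and the neuronal libraries were the shallowest. Alternatives were DESeq2 1.42.0, its size factors, no filter, a filter at a mean of 10 counts, TMM without the 10 most abundant genes, all 18 libraries in 1 fit, adjusted *p* alone, the replicate block, transcripts, each library left out and, chosen after seeing the data, library totals and sums without retained introns. Where a cause is not given, it was not tested.

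With a filter at a mean of 10 counts fewer members were tested, and those called fell to 1 of 1 in KIN against WT astrocytes and 0 of 4 in microglia. The same filter gave 1 member for WT microglia against astrocytes, 1 against neurons, 0 for WT astrocytes against neurons, and in KIN 1, 2 and 1 for the same 3 comparisons. In KIN against WT microglia DESeq2 called 0 members, giving *Usp18* no adjusted *p*, no filter gave 3 and adjusted *p* alone 2. DESeq2 called 1 member for microglia against astrocytes in WT and 1 in KIN. In KIN the same comparison gave 3 members with no filter, 3 with all 18 libraries, 3 with transcripts, 3 with library totals and 3 without retained introns. Library totals gave 1 member for WT microglia against astrocytes and 4 for KIN astrocytes against neurons. All 18 libraries gave 2 for WT astrocytes against neurons, *Ifitm3* higher and *Usp18* lower in astrocytes.

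Leaving out 1 library, members called ranged from 2 to 4 in KIN against WT astrocytes, 0 to 3 in microglia and 0 to 0 in neurons and the interaction. They ranged from 1 to 3 for WT microglia against astrocytes, 0 to 1 for WT astrocytes against neurons, 1 to 6 for KIN microglia against astrocytes, 3 to 5 against neurons and 2 to 3 for KIN astrocytes against neurons. The extra member there was called lower in astrocytes. It was *Isg15* without KIN astrocyte replicate 2 or KIN neuronal replicate 1, and *Irf7* without KIN neuronal replicate 3.

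With 3 libraries per group, the data cannot settle whether replicate numbers pair the libraries. Correlations of same-numbered deviations were -0.0833 to 0.0579 between genotypes, and every neuronal library correlated best with its own number. They were 0.0678, 0.22 and 0.101 for WT microglia against astrocytes, with 2 of 3 best with their own number, and -0.0395 to 0.0325 for the other fraction comparisons. With the replicate block, 2 members, *Bst2* and *Oasl2*, were called for KIN microglia against astrocytes, and no other member count moved.

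Signs near 0 changed. *Isg15* in neurons was at 0.16 with no filter and 0.17 with all 18 libraries, and -0.47 to 0.44 with a library left out. *Oasl2* in astrocytes was at -0.33 with library totals and -0.05 to 0.3 with a library left out, and *Isg15* there at -1.12 to 0.07. In the interaction *Ifit2* was at 0.19 with library totals and -2.05 to 1.01 with a library left out, *Ifit3* at -0.39 to 1.41 and *Oasl2* at -0.62 without retained introns. For microglia against astrocytes with library totals *Isg15* was at -0.3 and *Oasl2* at -0.21 in WT, and *Ifit3* in KIN was at -0.69 to 0.02 with a library left out. Over all genes, DESeq2 called 401 in place of 1040 in the astrocyte comparison of genotypes, 48 in place of 165 in microglia and 82 in place of 155 in the interaction. Library totals gave 1625 in astrocytes, the stricter filter and no filter 95 and 276 in microglia, and the replicate block 264 in the interaction. With library totals the calls higher and lower became 78 and 48 in place of 80 and 85 in the microglia comparison of genotypes, with a median of 0.135, and 142 and 4 in place of 103 and 52 in the interaction. They became 750 and 2565 in place of 1472 and 1614 for WT microglia against astrocytes, 2574 and 338 in place of 1476 and 741 for WT astrocytes against neurons, 2292 and 862 in place of 1865 and 1393 for KIN microglia against neurons, and 2645 and 1150 in place of 2072 and 1624 for KIN astrocytes against neurons.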
